A study of Mus musculus with 6 samples.

Results

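The developmental transcription factors and nuclear receptors of the mouse brain were taken from the splicing-sensitive array by name. Members were all array events of genes whose symbol starts with one of the family names Sox, Fox, Pax, Pou, Tcf, Mef2, Nfia, Nfib, Nfic, Nfix, Nr with a number, Klf, Runx, Stat, E2f, Ets, Etv, Gata, Tead, Rfx, Lhx, Meis, Pbx, Rar, Rxr, Ror or Esr, without *Klf5* and outside the congenic interval on chromosome 19. This gave 218 events in 122 genes, of 13002 events on the array. An event is a place where a transcript can be processed along alternative paths, such as a cassette exon, a retained intron or an alternative start or end. All 218 member events had intensities, as did 12948 of all events, in 7766 genes.

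Total RNA was measured from the brains of 6 mice of a B6.CAST congenic line, 3 homozygous for the *Nxf1* B6 allele and 3 homozygous for the *Nxf1* CAST allele, on 1 Affymetrix MJAY array each. *Nxf1* encodes the main export factor for messenger RNA. Each B6 homozygote had a CAST homozygous littermate of its own sex, which made 2 pairs of females and 1 of males. Age was 46 days in both females of the first pair and 23 days in both of the other, while among the males the B6 homozygote was 22 and the CAST homozygote 23 days of age. No drug or other treatment was labelled. All animals shared the B6 background, and the CAST homozygotes also carried CAST alleles of the genes linked to *Nxf1* on chromosome 19, so that effects of *Nxf1* and of its neighbours cannot be told apart. The question of the comparison was whether the *Nxf1* allele changes alternative RNA processing in general.

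Transcription factors of these families bind DNA through conserved domains and set which genes a cell type uses, and many of them pattern the brain and keep its neurons and glia in their mature state. Nuclear receptors are transcription factors that answer to hormones, retinoids and other lipids, or act without a known ligand. Alternative starts, cassette exons and splice sites are known to give these proteins different termini, DNA-binding parts or activation domains.

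The deposited intensities were pooled over the arrays of a set A and a set B, so each path has 1 value per set and no spread between animals. The header does not tie the sets to genotypes. It names controls before experiments and set A before set B, so set A was likely the *Nxf1* B6 and set B the *Nxf1* CAST animals. The value of an event is the log2 ratio of exclusion to inclusion intensity in set B minus that in set A, where a value above 0 means relatively more of the exclusion path in set B. An event was counted as past the fold when the absolute value was over 0.5, a 1.41-fold difference. No test over animals was possible, and no difference below is shown to exceed the spread between replicates. In brain RNA, fewer cells of a type and less RNA per cell cannot be told apart. *Nxf1* itself had 0 events on the array. In markers of the main brain cells, intensities reached 12087 for *Snap25* of neurons, 10330 for *Slc1a2* of astrocytes and 11314 for *Mbp* of oligodendrocytes. Not all of these markers were bright, since *Aldh1l1* of astrocytes reached 416. The microglial *Csf1r* and *Itgam* reached 459 and 258. Events were found for 5 of the 8 neuronal, 5 of the 5 astrocyte, 3 of the 5 oligodendrocyte, 2 of the 4 microglial and 2 of the 3 endothelial markers. Among markers of other tissues, *Acta1* of muscle was the only gene with an event, at 353 or less, and those of liver and blood had none. Of the marker events, 1 of the 3 in microglia was past the fold (-1.13) and 0 in every other marker list, and what part cell make-up had in the results was not tested.

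The largest difference of any member lay in an alternative start of *Runx3*, a runt-domain factor known for its role in the sensory neurons of touch and movement. RefSeq lists a distal and a proximal start for this gene, and the 250 bases before each are shown because the event is an alternative start whose span is close to the distance between them. The match of the event to these starts rests on that distance alone. The bases are from GRCm38.p6, plus strand, at chr4:135120395-135120644 for the distal and chr4:135152295-135152544 for the proximal start. Capitals mark the RUNX core motif TGTGGT on either strand.

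Runx3 distal: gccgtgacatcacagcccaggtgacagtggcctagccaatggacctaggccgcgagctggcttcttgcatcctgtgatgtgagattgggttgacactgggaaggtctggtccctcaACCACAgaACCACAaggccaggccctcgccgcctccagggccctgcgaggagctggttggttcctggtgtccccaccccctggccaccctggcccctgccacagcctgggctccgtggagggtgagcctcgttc
Runx3 proximal: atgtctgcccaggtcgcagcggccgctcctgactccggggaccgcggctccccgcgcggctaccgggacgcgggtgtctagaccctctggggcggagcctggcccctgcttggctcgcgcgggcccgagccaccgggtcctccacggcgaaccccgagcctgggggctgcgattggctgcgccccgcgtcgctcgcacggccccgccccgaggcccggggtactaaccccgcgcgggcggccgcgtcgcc

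The distal promoter held the motif 2 times, side by side on the minus strand, and the proximal promoter 0 times. Of 32851 RefSeq promoters cut to the same length, 4614 held it at least once on either strand. The promoters also differed in base composition, since the distal one held 8 CpG pairs and 65.2% G or C and the proximal one 38 CpG pairs and 78.8% G or C, where the median of all promoters was 6.00 CpG pairs and 52.4%. The starts lie 31900 bases apart in GRCm38, and the array event spans 32143 bases, from 134676559 to 134708702 on chromosome 4 in the positions of the array table, whose assembly is not given in the sources used here.

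The exclusion path of this *Runx3* event had an intensity of 203 in set A and 127 in set B, against 456 and 517 for the inclusion path. The paths differed in opposite ways, so that the ratio of exclusion to inclusion was 1.81-fold higher in set A (value -0.86). This event ranked 80th of all events by absolute value. With 50 added to every intensity its value was -0.68. The table does not say which start the exclusion path represents.

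*Esr2* encodes oestrogen receptor β, and rodents are known to make a form of it with an extra in-frame exon in the ligand-binding domain. Its cassette exon of 54 bases (77234930 to 77242321 on chromosome 12) had exclusion intensities of 126 in set A and 248 in set B. The inclusion intensities were 116 and 128, so the ratio was 1.78-fold higher in set B (value 0.83) and nearly all of the difference lay in the exclusion path. Apart from the 248, these intensities were low, and the value was 0.66 with 50 added to every intensity. Whether this exon is the one known in the ligand-binding domain was not checked. The other event of *Esr2*, a complex event, had a value of -0.22.

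*Rfx2*, a winged-helix factor known for switching on genes of motile cilia, had 2 cassette exons. In the exon of 92 bases (56944850 to 56970326 on chromosome 17) exclusion had 179 in set A against 281 in set B while inclusion had 239 in both, a value of 0.65. The exon of 75 bases also had relatively more exclusion in set B, with a value of 0.32.

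*Tcf7l2*, the HMG-box factor through which β-catenin acts on Wnt target genes and a marker of thalamic neurons, had a cassette exon of 69 bases (55817687 to 55892253 on chromosome 19) past the fold. Between set A and set B the exclusion path differed from 670 to 824 and the inclusion path from 440 to 362, which gave a value of 0.58. The alternative start of *Tcf7l2*, whose region in the table contains that of the exon, followed in size with a value of 0.32 and exclusion intensities of 695 and 755. The remaining 4 events, at the downstream part of the gene, lay between -0.12 and 0.05. The upstream and downstream starts that RefSeq gives for *Tcf7l2* lie 153511 bases apart, and the 250 bases before each are shown to set them beside the *Runx3* pair (GRCm38.p6, plus strand, chr19:55741560-55741809 and chr19:55895071-55895320). The alternative start event on the array spans 166153 bases, unlike that distance, and was not matched to these starts. There are no capitals, because the TCF/LEF core motif CTTTGA, found in 13.8% of promoters on either strand, had 0 matches in both.

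Tcf7l2 upstream: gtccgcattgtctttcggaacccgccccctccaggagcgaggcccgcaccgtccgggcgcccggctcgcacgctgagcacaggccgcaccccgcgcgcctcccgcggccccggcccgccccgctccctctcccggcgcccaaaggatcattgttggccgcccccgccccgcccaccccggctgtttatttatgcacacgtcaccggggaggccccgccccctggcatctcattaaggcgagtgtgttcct
Tcf7l2 downstream: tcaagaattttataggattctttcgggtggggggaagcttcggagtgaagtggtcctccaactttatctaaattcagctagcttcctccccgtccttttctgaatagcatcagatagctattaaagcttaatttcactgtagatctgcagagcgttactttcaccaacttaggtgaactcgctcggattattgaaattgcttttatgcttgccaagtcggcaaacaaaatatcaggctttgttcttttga

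The upstream *Tcf7l2* promoter held 72.8% G or C and 30 CpG pairs, and the downstream one 40.8% and 7. In *Tcf7l2* the start with more CpG pairs was thus the upstream one and in *Runx3* the downstream one.

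*Sox13*, a SoxD factor without an activation domain of its own, had an alternative 5' splice site event (135280501 to 135281033 on chromosome 1) with less exclusion in set B. The intensities of set A and set B were 162 and 137 for exclusion against 549 and 702 for inclusion, a value of -0.60. The inclusion path carried more of this difference (0.35 on the log2 scale) than the exclusion path (-0.24).

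*Tcfe3*, now named *Tfe3*, encodes a factor of lysosomal genes. Its complex event at the start of the gene (7339801 to 7342632 on chromosome X) has no exclusion path, and 3 of its paths were set against a common one. The leading path had an intensity of 171 in set A and 211 in set B, against 632 and 551 for the common path. This event passed by the smallest margin, with an absolute value of 0.50, and the other paths had values of 0.40 and 0.09.

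The last events past the fold belonged to genes that share only letters with a family. *Foxred2*, an enzyme of the endoplasmic reticulum and no forkhead factor, had a complex event (77786519 to 77786996 on chromosome 15) with exclusion intensities of 180 in set A and 247 in set B, inclusion intensities of 548 and 494 and a value of 0.61. *Tcf19*, a nuclear protein with a PHD finger, had an alternative 5' splice site event (35653355 to 35653724 on chromosome 17) with exclusion intensities of 313 and 334, inclusion intensities of 138 and 99 and a value of 0.57. In *Tcf19* most of the difference lay in the inclusion path, whose intensities were near the low end of the array, where the lowest was 43.

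**Figure D1:**
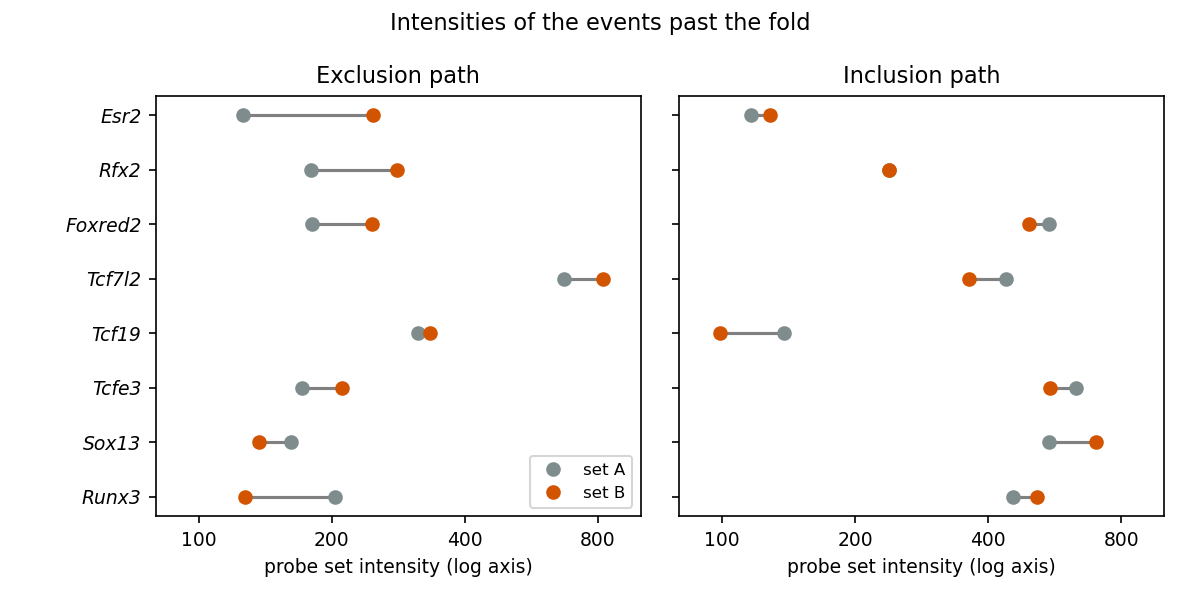
Probe set intensity (log axis) of the 8 member events past the fold, in set A (grey) and set B (orange), for the exclusion path (left) and the inclusion path (right). For *Tcfe3*, which has no exclusion path, the leading and the common path are drawn. The inclusion points of *Rfx2* coincide at 239, and the exclusion path of *Esr2* shows the widest gap, from 126 to 248.

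These 8 events made up 3.67% of the 218 member events, below the 7.34% of all events that passed the same fold. The gap depended on the setting. It was smaller with 50 added to every intensity (2.75% against 3.18%) and at a fold of log2 of 1.4 (6.42% against 8.10%). It was not smaller without genes that share only letters with a family (2.99% against 7.34%) or with values averaged over paths (3.21% against 7.04%). Averaging leaves an event with only an exclusion and an inclusion path unchanged, so it could alter few events. Genes with an event past the fold were 8 of 122, or 6.56%, against 11.7% of all genes. Relatively more exclusion in set B past the fold was seen in 5 of the 209 member events with an exclusion path, where 4.51% of all such events did so, and less exclusion in 2, where 2.72% did. The mix of event types and the brightness of the probe sets, neither used in choosing the members, were compared with those of all events. The brightness comes from the same intensities as the value. At the share with which all events of the same type passed, 16.2 of the 218 members would have done so, and at the share for the same type and class of lowest intensity 15.6. How far the lower count of the members exceeds the error of the arrays was not tested.

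In size the bulk of the member events was like the rest. Their median absolute value was 0.17 and that of all events 0.18, and the 90th percentiles were 0.41 and 0.45. An absolute value of 0.1 or less was found in 33.0% of the member events and in 29.6% of all events. Values above 0 were found in 105 of the 209 events with an exclusion path (50.2%), and in 55.3% of all such events. The medians were 0.00 and 0.03.

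Alternative starts made up 24.8% of the member events and 17.4% of all events, and alternative ends 14.7% and 19.5%. Cassette exons made up 27.1% of the member events, close to the 29.1% of all. Of the 54 alternative starts 1 was past the fold, that of *Runx3*, where 6.32% of all alternative starts were. Cassette exons gave 3 of 59, against 8.56% of all, and alternative 5' splice sites 2 of 10, against 10.8%. Complex events gave 1 of 23, against 8.38%, and those without an exclusion path 1 of 9, against 10.6%. The fold was not passed by any of 16 retained introns (9.87% of all such events), 13 alternative 3' splice sites (9.09%) or 32 alternative ends (2.78%), nor by the pair of mutually exclusive exons (1.69%) or the twin cassette (10.5%). By brightness, the fold was passed by 2 of the 39 member events whose lowest intensity was under 100, where 10.6% of all such events passed, by 5 of the 118 from 100 to under 300 (7.37%) and by 1 of the 61 at 300 or more (4.32%). The lengths of cassette exons, which the event names give in bases, were a multiple of 3 in 32 of 59 member exons (54.2%) and in 53.2% of all. Of the cassette exons past the fold, those of *Esr2* and *Tcf7l2* keep the reading frame by length and that of *Rfx2* does not.

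The intensities themselves were a little lower in set B among the members. The median log2 difference of set B over set A was -0.03 for the exclusion and -0.04 for the inclusion path, against 0.02 and -0.02 over all events. Both paths were lower in set B in 75 of the 209 events and higher in 46, which is 35.9% with both lower against 29.5% of all events. Over all 12560 events with an exclusion path, both were lower in 3711 and higher in 3640. In 42 member events the exclusion path was higher and the inclusion path lower in set B, and in 40 the other way. Over all 12560 events these counts were 2887 and 2064, a less even split.

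**Figure D2:**
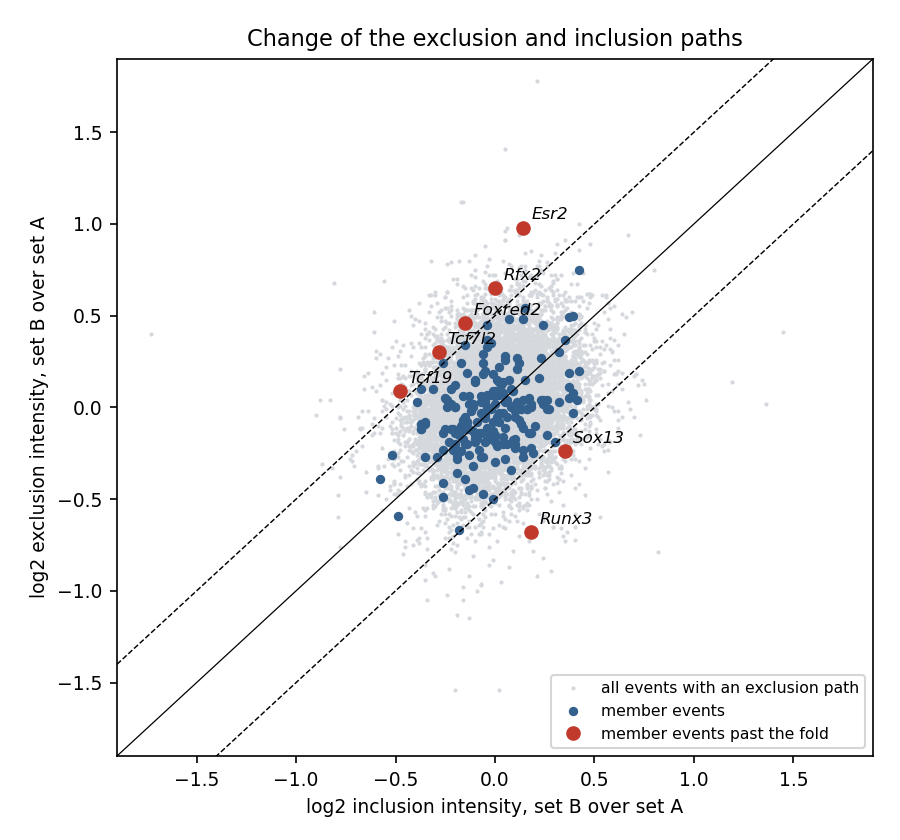
Log2 difference of set B over set A in the exclusion path (vertical axis) against that in the inclusion path (horizontal axis), for all events with an exclusion path (grey), member events (blue) and member events past the fold (red). The solid line marks equal change and the dashed lines the fold of 0.5; *Esr2* and *Rfx2* leave the band along the exclusion axis and *Tcf19* along the inclusion axis.

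Several members lay close to the fold. Just inside it were *Tcfe3* (0.50), *Tcf19* (0.57), *Tcf7l2* (0.58), *Sox13* (-0.60) and *Foxred2* (0.61). Among those just outside were an alternative 3' splice site of *Meis3* (0.50 after rounding), a cassette exon of *Pbx4* (-0.49), a retained intron of *Mef2d* (-0.49) and a cassette exon of *E2f6* (-0.49).

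Families held between 3 and 19 events, too few to set their counts past the fold apart from the 7.34% of all events, and the counts below are descriptions. Of the HMG-box factors, the SOX family had 9 events in *Sox5*, *Sox6*, *Sox13* and *Sox17*. Of the 8 with an exclusion path, 7 had a value below 0, with a median of -0.19. *Sox5* and *Sox6* are SoxD factors known from cortical neurons and the glial lineage. The alternative end of *Sox5* had exclusion intensities of 95 in set A and 97 in set B, beside inclusion intensities of 236 and 295 (value -0.29), and its other 3 events lay between -0.22 and 0.08. *Sox6* had a complex event without an exclusion path, whose paths had values of 0.19, 0.18 and -0.07. The 3 events of *Sox17*, an endothelial and endodermal factor, lay between -0.30 and -0.02. Beside *Tcf7l2*, the TCF/LEF genes were *Tcf7*, with a cassette exon at -0.27, and the gene listed as *Tcf3*, which by its place on chromosome 6 is now named *Tcf7l1* and had a cassette exon at -0.21.

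E proteins are helix-loop-helix factors that pair with neuronal factors such as those of the achaete-scute group. *Tcf12* had 6 events, of which 5 had values below 0. The cassette exon of 72 bases had exclusion intensities of 119 in set A and 86 in set B, beside inclusion intensities of 318 and 306, with a value of -0.41. The alternative start that spans 785 bases had a value of -0.31 and the one that spans 225546 bases a value of -0.24, whereas a retained intron had a value of 0.28. The events of *Tcf12* thus lay on both sides of 0. *Tcf4*, an E protein linked to intellectual disability, had a cassette exon at -0.20 and an alternative end at 0.08, and *Tcfe2a* a complex event at 0.16.

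Among forkhead factors, 0 of 19 events in 13 genes were past the fold and the median value was 0.00. The value farthest from 0 belonged to *Foxj3*, whose twin cassette had exclusion intensities of 1216 in set A and 963 in set B, beside inclusion intensities of 116 and 123 (value -0.42). A second event of *Foxj3*, a cassette exon, had a value of -0.33. The alternative end of *Foxo3*, an insulin-regulated factor, had a value of -0.41 with exclusion intensities of 1500 and 1352 and inclusion intensities of 165 and 198. The speech-related genes showed small values, 0.14 and -0.05 for *Foxp1*, 0.09 for *Foxp2* and -0.06 for *Foxp4*.

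*Pax6*, a paired-box factor of the eye and the cortical progenitors, is known for a cassette exon of 42 bases, exon 5a, that alters its paired domain. An exon of that length was on the array, with exclusion intensities of 679 in set A and 664 in set B, inclusion intensities of 154 and 158 and a value of -0.07. A complex event of *Pax6* had a value of 0.19, and in another without an exclusion path the leading path had an absolute value of 0.28. POU factors, named after *Pit1*, *Oct1* and *unc-86*, had 18 events in 5 genes, 9 of them above 0. *Pou2f1*, the broadly expressed Oct1, had the widest range of all genes with 4 or more events, from -0.41 for a cassette exon of 72 bases (exclusion 1328 and 1102, inclusion 869 and 956) to 0.42 for an alternative end (exclusion 887 and 903, inclusion 139 and 106). The 5 events of *Pou2f2* ran from -0.31 to 0.37 and the 4 of *Pou6f1* from -0.16 to 0.24.

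**Figure D3:**
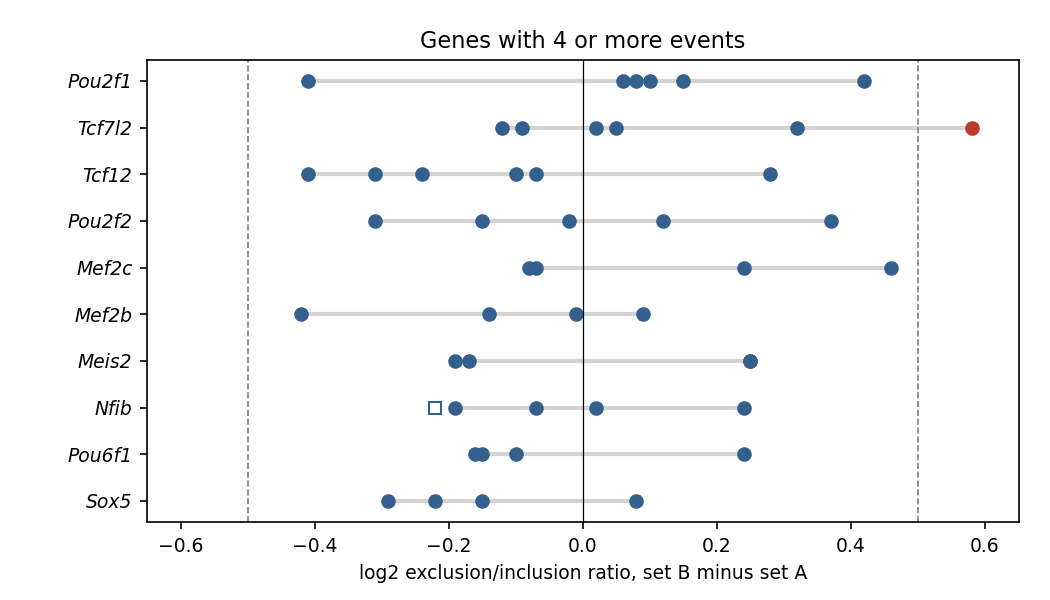
Value of each event (log2 exclusion to inclusion ratio, set B minus set A) in the 10 genes with 4 or more events, ordered by their range; dashed lines mark the fold of 0.5 and the red point is the cassette exon of *Tcf7l2*. The open square is a complex event of *Nfib* without an exclusion path. Points stand on both sides of 0 in every one of the 10 genes.

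Opposite directions within a gene were about as frequent as over the whole array. Of the 54 genes with 2 or more events that have an exclusion path, 34 (63.0%) had values on both sides of 0, against 60.2% of all such genes. The 10 genes with 4 or more such events all did, as did 92.4% of all genes with as many. None of the 8 genes past the fold had a second event past it. *Runx3* and *Sox13* had only 1 event each, and over the whole array the 950 events past the fold lay in 909 genes. Events of a gene share exons and are not independent.

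MEF2 factors are MADS-box proteins that respond to neuronal activity and calcium, and they are known for alternative α exons after the DNA-binding part. The exons below were not checked against that annotation. The mutually exclusive exons of *Mef2d* had exclusion intensities of 163 in set A and 166 in set B, beside inclusion intensities of 2774 and 2681, with a value of 0.08. The cassette exons of *Mef2a*, of 132 and 138 bases, had values of -0.07 and 0.01, and that of *Mef2c*, of 138 bases, 0.24. Other events of the family reached larger values. The alternative end of *Mef2c* had exclusion intensities of 4234 and 4525 and inclusion intensities of 272 and 211 (value 0.46), and the retained intron of *Mef2d* had exclusion intensities of 2167 and 1537 and inclusion intensities of 4843 and 4821 (value -0.49). The alternative end of *Mef2b* followed at -0.42. Several further MEF2 events were as close to 0 as these exons, such as a cassette exon of *Mef2b* (-0.01) and the alternative start of *Mef2c* (-0.08), and none of the 12 MEF2 events was past the fold.

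NFI factors, which drive the switch from neural stem cells to glia, had the smallest values. Their 10 events in *Nfib*, *Nfic* and *Nfix* had a median absolute value of 0.07 and a highest of 0.24, for an alternative end of *Nfib*. The cassette exon of 148 bases in *Nfix* had exclusion intensities of 3946 and 3376 and inclusion intensities of 2406 and 2013, both lower in set B, with a value of 0.03. The other *Nfix* events had values of 0.04 and -0.08, and those of *Nfic* 0.05 and 0.19.

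**Figure D4:**
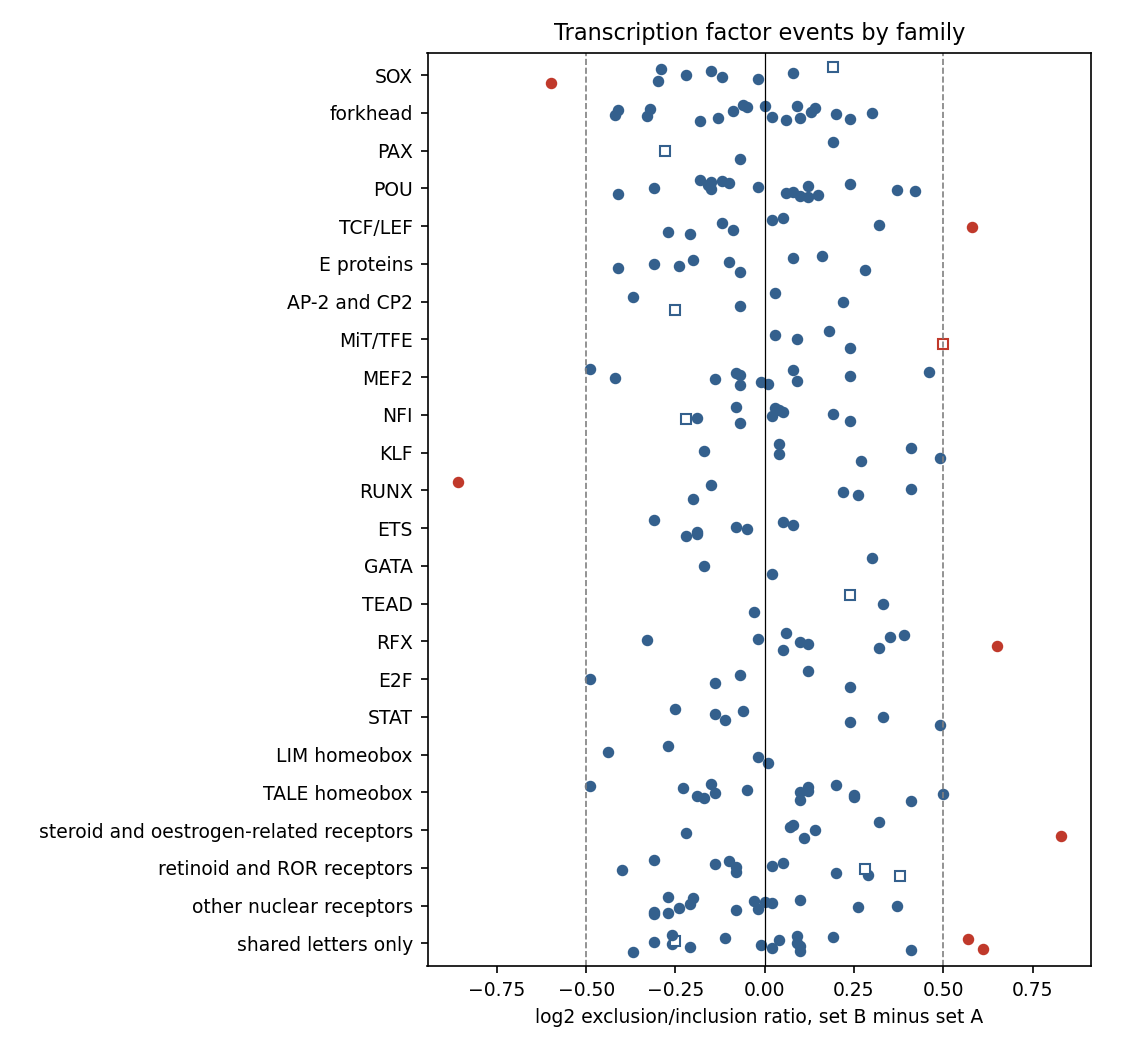
Value of each of the 218 member events (log2 exclusion to inclusion ratio, set B minus set A) by family, where filled points have an exclusion path, open squares are complex events without one, drawn at the value of their leading path, and red marks events past the fold of 0.5 (dashed lines). The families spread around 0. Among others, SOX, ETS and LIM homeobox events lay mostly below it, and MiT/TFE, KLF, RFX and steroid receptor events mostly above. Of all events with an exclusion path, 55.3% were above 0.

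Zinc-finger factors of the KLF family had 5 of 6 events above 0. *Klf3* had the highest value, 0.49 for a complex event (exclusion 142 and 194, inclusion 444 and 433), followed by a retained intron of *Klf7*, a factor of growing axons, at 0.41, whose exclusion intensities of 68 and 73 were near the low end of the array. In the RFX family 8 of 10 events were above 0. The retained introns of *Rfx7* and *Rfx5* had values of 0.39 and 0.35, a second retained intron of *Rfx5* had -0.33, and the cassette exon of *Rfx3* had 0.12. The GATA genes, known from blood and from brainstem neurons, lay between -0.17 for *Gata2* and 0.30 for *Gata6*.

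The paralogues of *Runx3* had values on both sides of 0 and none past the fold. *Runx2* had 3 events, of which a cassette exon had exclusion intensities of 90 in set A and 106 in set B, inclusion intensities of 352 and 312 and a value of 0.41. The other cassette exon of *Runx2* had a value of 0.22 and its alternative start -0.15. The alternative start of *Runx1* had a value of 0.26 and its cassette exon -0.20. ETS factors lay between -0.31 for *Etv6* and 0.08 for *Etv3*, and the complex events of *Etv1* and *Etv5* at -0.05 and 0.05. Among the TEAD factors, the DNA-binding partners of YAP, *Tead2* had a retained intron with exclusion intensities of 115 and 193 and inclusion intensities of 140 and 187. Both paths were thus brighter in set B and the value was 0.33.

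E2F factors govern entry into the cell cycle and had 5 events, of which the cassette exon of 66 bases in *E2f6* had exclusion intensities of 173 and 109 and inclusion intensities of 95 and 84. The AP-2 and CP2 genes reached -0.37, for an alternative start of *Tcfcp2*. STAT factors carry cytokine signals to the nucleus. The 3' splice site event of 49 bases in *Stat3*, the kind of choice known to give the short β form, had exclusion intensities of 119 and 115 and inclusion intensities of 1021 and 1064, with a value of -0.11. *Stat5b* had an alternative start at -0.25 and an alternative 3' splice site at -0.06.

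Homeobox factors of the TALE group, *Meis* and *Pbx*, bind DNA as partners of HOX proteins. *Meis1* and *Meis2* carry cassette exons of equal length. The exon of 95 bases had a value of 0.41 in *Meis1* (exclusion 153 and 198, inclusion 431 and 419) and of -0.17 in *Meis2* (exclusion 262 and 204, inclusion 1836 and 1612), so the directions were opposite. The exon of 113 bases in *Pbx3*, whose skipping is known to give a short PBX form, had a value of -0.23 (exclusion 181 and 129, inclusion 489 and 408). *Meis3* had exclusion intensities of 400 and 471 and inclusion intensities of 390 and 325 in the event just under the fold. Of the LIM homeobox genes, *Lhx6*, a factor of cortical interneurons, had a cassette exon at -0.44 (exclusion 196 and 165, inclusion 256 and 292) and an alternative start at -0.27, and *Lhx2* a value of 0.01.

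Nuclear receptors for steroids and their orphan relatives had 6 of 7 events above 0. Beside *Esr2*, the alternative start of *Nr3c1*, the glucocorticoid receptor, had exclusion intensities of 555 in set A and 632 in set B, beside inclusion intensities of 220 and 200, with a value of 0.32. *Esrra*, *Esrrg* and *Esrrb* lay between 0.07 and 0.14. The event listed under *Esr1* had a value of 0.11 but lies on the minus strand, while RefSeq places *Esr1* on the plus strand, so it may not measure that receptor.

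Retinoid receptors turn the vitamin A derivative retinoic acid into changes of transcription, and ROR factors act in the clock and in cerebellar Purkinje cells. *Rora* had a cassette exon of 82 bases with exclusion intensities of 250 and 215, inclusion intensities of 746 and 845 and a value of -0.40. Its alternative end had a value of -0.08, the leading path of its complex event had an absolute value of 0.28, and *Rorb* had values of -0.14 and 0.02. *Rxrb*, the common partner of many receptors, had an alternative start at -0.31 (exclusion 1013 and 871, inclusion 785 and 839). The events of *Rarb* had values of 0.20 and 0.29, and the leading path of *Rara* an absolute value of 0.38.

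Of the other nuclear receptors, 5 of 15 events were above 0 and 0 past the fold. *Nr2e1*, the Tlx receptor of neural stem cells, had the highest value, 0.37 for an alternative start with exclusion intensities of 96 and 121 and inclusion intensities of 216 and 210. *Nr4a2*, the Nurr1 receptor of dopamine neurons, had an alternative start at -0.27 (exclusion 2287 and 2021, inclusion 1032 and 1102), an alternative 5' splice site at -0.20 and an alternative 3' splice site at 0.10. The clock gene *Nr1d2* had a complex event at -0.31 and *Nr2f2* an alternative start at 0.00. A complex event of *Nr2c2* had an exclusion path placed on chromosome 18 and its other paths on chromosome 6, where RefSeq has the gene. Its value of -0.24 came from the path on chromosome 18, and the paths on chromosome 6 gave -0.05.

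The 12 genes that share only letters with a family held 18 events, 2 of them past the fold. *Runx1t1*, a corepressor of the ETO group, had a complex event whose leading path went from 407 in set A to 297 in set B against 1460 and 1269 in the common path (absolute value 0.25). *Foxred1*, a mitochondrial assembly factor, ranged from -0.37 to 0.41 over 3 events.

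Related genes that the names do not reach were looked at by list. Nuclear receptors of other names had 0 of 7 events past the fold, and the dimer and pocket-protein partners of E2F 0 of 12. These counts stand beside the 7.34% of all events past the fold, and with so few events in a list nothing particular to a list is read from them. Coregulators of nuclear receptors had 4 of 36 (11.1%), 1 each in *Ncoa4* (0.61), *Ncoa6* (0.56), *Ncoa1* (0.53) and *Med1* (0.51), and each was in the direction of more exclusion in set B, in which 4.51% of all events passed. The exclusion intensities were 65 and 95 in the *Ncoa4* event and 80 and 117 in the *Ncoa1* event, near the low end of the array. Partners of TCF/LEF had 2 of 20, *Tle2*, a Groucho corepressor (-0.70), and *Bcl9l*, a β-catenin coactivator (-0.51). Genes of the STAT pathway had 2 of 12, the inhibitors *Cish* (0.71) and *Socs5* (-0.61), and the MEF2 and NFAT signalling partners 1 of 21, *Cabin1* (-0.57). Partners of RUNX, TEAD, GATA and LIM factors had 0 of 5.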

How the data were processed

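Brain RNA of 6 mice was hybridized to MJAY arrays. The authors' deposited table gives summarized intensity values of exclusion and inclusion probe sets, already pooled over the arrays of set A and of set B, as whole numbers. Affymetrix Power Tools is named in the submitters' processing notes, and normalization, background correction and assembly are not given in the sources used here. The table's own scores and q-values hold the authors' comparison and were not used. It held 0 columns of values per animal. Intensities listed for the paired and standard comparisons differed in 0 of 26304 paths.

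For each path, exclusion intensity was divided by inclusion intensity within a set, and the log2 of this quotient in set A was taken from that in set B. Paths were joined by event name, and the path with the largest absolute value stood for the event. The fold of 0.5 is the size named in the study's methods, used here without their q-value. Members and lists were chosen with earlier results of these data known. Named are all genes past the fold, the 5 events on either side of it, the largest value per family and a list of genes with roles in the brain. *Klf5* and a few genes that this rule names are not reported here. Symbols were matched to RefSeq (GRCm38.p6), 112 as given and 10 through older symbols, and promoters were given for 101 of the 122 genes. Of 1061 retained introns with a number in the event name, 995 spanned that number of bases plus 2, so the numbers were read as lengths. The calculation was tested on simulated data in which set B copied set A without noise, apart from planted shifts of the exclusion intensity. This checked the arithmetic only and not the error of the arrays. The number of arrays limits the precision. Alternatives were the fold, the dimness limit, an added intensity, the gene list, the joining of paths and the event types. Calculations ran in Python 3.11.15 with numpy 2.4.6 and pandas 2.3.3, an exact interval came from scipy 1.17.1, and the plots were drawn with matplotlib 3.10.9.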

Additional observations from a re-analysis of the deposited data

How the results depend on the processing

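No paired analysis was possible because the table holds no value per animal or pair, and for the same reason no replicate could be left out. The fold decided how many members were counted. At log2 of 1.4 it was passed by 14 events in 14 genes, and at 1 by 0 events and 0 genes, where 0.224% did. The other alternatives gave between 6 and 7 events. The gap between the members' share and that of all events depended on the setting, with 2.75% against 3.18% when 50 was added to every intensity, 6.42% against 8.10% at log2 of 1.4, 3.35% against 6.46% over events with all intensities at 100 or more, 3.21% against 7.04% with the mean over paths and 5.30% against 9.02% without alternative starts and ends. Adding 50 to every intensity left 6 of the same 8 events, without *Tcf19* and *Tcfe3* (0.42 each), and the mean over paths left 7, without *Tcfe3* (0.33). With 50 added, *Runx3* had -0.68 and *Esr2* 0.66. The others that stayed lay close to the fold, with 0.53 for *Rfx2* and *Tcf7l2*, 0.51 for *Foxred2* and -0.51 for *Sox13*. Leaving out 11 of the 12 genes that share only letters with a family (all but *Nr2c2ap*) gave 6 of 201 events. This was 2.99% against 7.34% of all events. The median absolute value of 0.17 became 0.16 over the 179 events with all intensities at 100 or more, 0.14 with 50 added, 0.15 with the mean over paths and 0.19 over the 132 events that are neither alternative starts nor ends. The share of events with relatively more exclusion in set B stayed between 47.2% and 51.2%. No value of an event past the fold changed its sign when 50 was added. Averaging over paths returns the same value for an event with only an exclusion and an inclusion path. Of the events past the fold it could therefore change only *Tcfe3*, whose mean was taken over absolute values. Low intensities limit the reading of dim events, since 10.6% of all events with an intensity under 100 passed the fold against 4.32% of those at 300 or more.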
